A study of Mus musculus with 8 samples.

Results

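Mitochondrial fatty acid β-oxidation genes were followed through RNA-Seq of brown adipose tissue (BAT), the depot that burns lipid to make heat. The 34 genes were chosen by symbol from the deposited table of 49452 genes. There, 33 symbols matched exactly, and Acad12 was matched by its Ensembl ID because its row carries the joint symbol of Acad10 and Acad12. All libraries came from male C57BL/6 mice with no transgene or deletion named in the labels, in 4 groups of 2 libraries. The first pair of groups held mice 10 to 12 weeks old that were kept at 22 °C (replicates 4 and 7) or exposed to 4 °C for 24 h (replicates 2 and 11). The cold-exposed mice were fasted at the end of the exposure, and the methods do not make clear whether the 22 °C mice were fasted too. The second pair held mice 32 weeks old after 28 weeks on a diet: NCD, the normal chow diet of the labels and a micronutrient-matched control diet in the methods (replicates 6 and 8), or a high-fat diet, HFD (replicates 2 and 6). The labels do not say that replicates were separate animals, so the p-values measure the spread between these samples, which may be technical.

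β-oxidation shortens fatty acids by a pair of carbons per turn inside mitochondria and passes electrons to the respiratory chain. A fatty acid is first activated to an acyl-CoA by acyl-CoA synthetases. Long chains are then moved onto carnitine by carnitine palmitoyltransferase 1 (CPT1), carried across the inner membrane and moved back to CoA by CPT2. Malonyl-CoA blocks CPT1, and malonyl-CoA decarboxylase, encoded by Mlycd, removes malonyl-CoA. Each turn then runs through an acyl-CoA dehydrogenase, a hydratase, a 3-hydroxyacyl-CoA dehydrogenase and a thiolase, while the electron transfer flavoprotein (ETF) collects the electrons of the dehydrogenases. In BAT this pathway is a main source of the electrons whose transport builds the proton gradient that uncoupling protein 1 dissipates as heat.

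The libraries differed in ways that the groups do not explain, and these bear on the results below. One fragment on a transcript of 2000 bases was worth between 0.00438 and 0.00606 FPKM (fragments scaled to transcript length and to the mapped fragments of the library), so each library could resolve levels far under 1 FPKM. Each group held 1 library, called satellite-high here, in which the satellite repeat gene Gm10800 exceeded 100 FPKM. These were replicate 4 of 22 °C, replicate 11 of 4 °C, replicate 8 of NCD and replicate 2 of HFD. The other 4, called satellite-low, had at most 4.13 FPKM of it. The run prefix in the sample descriptions was SN7640 for NCD replicate 6 and for all 4 libraries of the temperature groups, and 7001432L for NCD replicate 8 and both HFD libraries, so within NCD the replicate and the run prefix cannot be told apart. All X-linked genes were listed at 0 in both 22 °C libraries and in NCD replicate 6 but not in the other 5 libraries, so that difference in the deposited values cannot be told apart from temperature. Of the genes of the mitochondrial genome 0, 1 and 1 were above 0 in the same 3 libraries and 15 in each of the other 5. All 34 β-oxidation genes are autosomal. All 10 brown adipocyte markers were present in every library, with Ucp1 between 699 and 6462 FPKM. The summed level of 11 skeletal muscle markers was 539 and 108 FPKM in the 22 °C libraries, 4138 and 1853 FPKM in the 4 °C libraries, 557 and 1437 FPKM in the NCD libraries, and 177 and 15.2 FPKM in the HFD libraries. In bulk tissue, fewer cells of a type and less RNA per cell cannot be told apart.

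Several of the β-oxidation genes were among the most abundant transcripts of this tissue. Averaged over 8 libraries, 17 of the 34 genes reached 100 FPKM, 9 lay between 10 and 100 FPKM, 5 between 1 and 10 FPKM and 3 below 1 FPKM. Hadhb led with a mean of 1214 FPKM, followed by Acaa2 (734 FPKM), Acadvl (657 FPKM), Acsl1 (639 FPKM), Hadha (523 FPKM) and Acadm (516 FPKM). Only 53 autosomal mRNA genes averaged 500 FPKM or more, and these 6 were among them. Hadha and Hadhb encode the α and β subunits of the mitochondrial trifunctional protein, which runs the last 3 reactions on long chains. Acaa2 encodes a mitochondrial 3-ketoacyl-CoA thiolase, Acadvl and Acadm encode the very-long-chain and medium-chain acyl-CoA dehydrogenases, and Acsl1 encodes the leading long-chain acyl-CoA synthetase of adipocytes. All 3 ETF genes were abundant, with means of 255 FPKM for Etfdh, 215 FPKM for Etfa and 185 FPKM for Etfb.

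At the CPT1 and synthetase steps one gene carried most of the transcript. Among the CPT1 isoforms, Cpt1b, the muscle and brown fat isoform, had a mean of 331 FPKM against 6.55 FPKM for Cpt1a, the liver isoform, and 0.344 FPKM for Cpt1c, the brain isoform. Among synthetases, Acsl1 at 639 FPKM stood above Acsl5 (70.9 FPKM), the acetyl-CoA synthetase gene Acss1 (40.2 FPKM), the medium-chain synthetase gene Acsm3 (20.4 FPKM), Acsl3 (9.90 FPKM) and Acsf2 (6.84 FPKM). Acsm5 (0.982 FPKM) and Acsl6 (0.133 FPKM) were the other low members beside Cpt1c. The acyl-CoA dehydrogenase genes spanned from Acadvl down to Acad10 at 5.70 FPKM, with Acadl at 340.0 FPKM, Acads at 136 FPKM, Acad11 at 90.0 FPKM, Acad9 at 21.1 FPKM and Acad12 at 8.79 FPKM. Reads of Acad10 and Acad12, related genes that lie side by side on chromosome 5, may have been split between their rows, so both levels are uncertain.

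For most members the 8 libraries lay within 3-fold of each other. The highest library was less than 2-fold above the lowest for 5 genes, 2-fold to 3-fold above it for 18 and over 3-fold for 11. The summed FPKM of the 34 genes was 5431 and 6093 in the 22 °C libraries, 7607 and 7565 in the 4 °C libraries, 10893 and 6379 in the NCD libraries, and 6332 and 8813 in the HFD libraries. The 4 °C sums lay above the 22 °C sums, while the NCD and HFD sums overlapped. As a share of the FPKM of all autosomal mRNA genes the members took 2.83% and 3.14% in the 22 °C libraries, 2.64% and 3.20% in the 4 °C libraries, 4.37% and 3.81% in the NCD libraries, and 3.10% and 3.45% in the HFD libraries. On that share the cold groups overlapped and both HFD libraries lay below both NCD libraries.

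**Figure D1:**
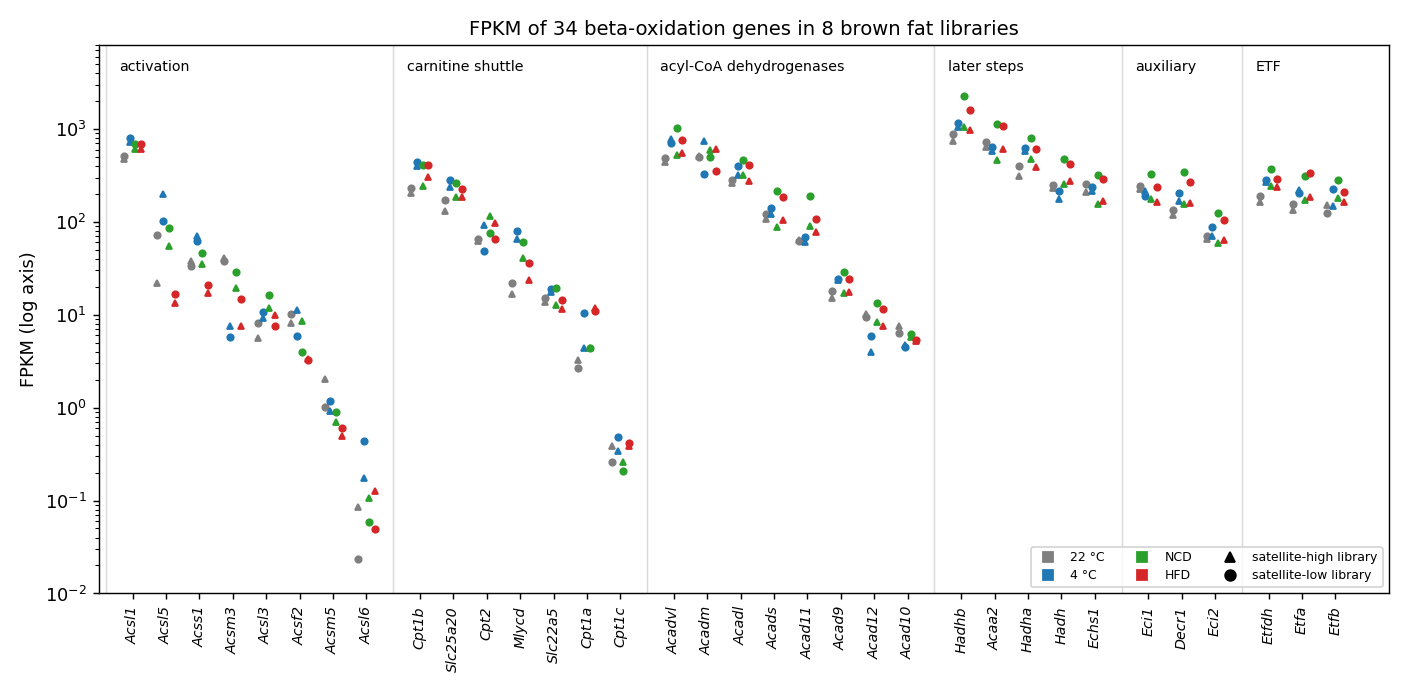
FPKM on a log axis of each of the 34 genes, grouped by step, in 8 libraries; colours mark the 4 groups and triangles the satellite-high libraries. Hadhb, Acaa2, Acadvl, Acsl1, Hadha and Acadm sit highest with means of 516 to 1214 FPKM, and Acsl6, Cpt1c and Acsm5 sit below 1 FPKM on average.

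The first comparison asked which members differ in BAT between 4 °C and 22 °C. Two-sided limma on log2(FPKM + 1), with Benjamini-Hochberg adjustment over all 17477 autosomal genes tested, was read at an adjusted p below 0.05 together with a doubling or a halving (log2 fold change of 1 or more in size). Mlycd rose and Acsm3 fell, and these were the only 2 of the 34 members past that threshold. Over all genes tested 1.44% passed it, 1.22% higher and 0.223% lower. Unadjusted p was below 0.05 for 10 of the 34 members and for 24.5% of all genes tested.

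Mlycd (chr8:119394878-119411102, plus strand, GRCm38) encodes the decarboxylase that relieves the malonyl-CoA block on CPT1. Its level was 16.5 and 21.7 FPKM in the 22 °C libraries and 80.6 and 65.3 FPKM in the 4 °C libraries. The groups did not overlap, with means of 73.0 ± 10.8 and 19.1 ± 3.63 FPKM (SD, n = 2 each) that differed 3.82-fold. The log2 fold change was 1.88 ± 0.25 (SE, limma adjusted p = 0.0442), and was 1.92 within the satellite-high and 1.85 within the satellite-low libraries. Mlycd was past the threshold under 10 of 16 alternatives, with adjusted p from 0.00409 to 0.171. Without 22 °C replicate 4, 4 °C replicate 2 or 4 °C replicate 11 it was not past the threshold, and its log2 fold change was 1.70, 1.73 and 2.03 in turn.

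Acsm3 (chr7:119760923-119787513, plus strand) encodes a mitochondrial synthetase for medium-chain fatty acids. It stood at 41.1 and 37.9 FPKM at 22 °C and at 5.83 and 7.63 FPKM at 4 °C. The groups were far apart, with means of 39.5 ± 2.26 and 6.73 ± 1.28 FPKM (SD, n = 2 each). The log2 fold change was -2.40 ± 0.21 (SE, limma adjusted p = 0.0215), and was -2.29 in satellite-high and -2.51 in satellite-low libraries. It passed under 13 of 16 alternatives, with adjusted p from 1.07e-07 to 0.153, and did not pass without 4 °C replicate 2, where the log2 fold change was -2.23. Acsm3 shares exon sequence with Eri2 on the opposite strand, and Eri2 stood at 6.73 and 6.39 FPKM at 22 °C and at 1.81 and 1.71 FPKM at 4 °C. Whether reads were counted by strand is not given in the sources used here, so reads of the overlapping exons cannot be assigned to one of the pair.

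The sequences below are the 250 bases upstream of the RefSeq start on GRCm38.p6, written 5′ to 3′ on the gene's strand. Capitals mark AGGTCA, the half-site of nuclear receptors such as PPARα and ERRα, and GGGCGG, a GC box, each on either strand. Mlycd and Acsm3 are shown as the members past the threshold at 4 °C, and Acsl5 and Cpt1a as the members with the largest differences in opposite directions under HFD. The Mlycd window lies at chr8:119394644-119394893 (+) and overlaps GENCODE exon sequence of Mlycd by 16 bases. The Acsm3 window lies at chr7:119760673-119760922 (+), that of Acsl5 at chr19:55253119-55253368 (+) and that of Cpt1a at chr19:3323051-3323300 (+), which overlaps by 16 bases a GENCODE exon of Cpt1a that starts upstream of the gene start in the deposited table.
Mlycd: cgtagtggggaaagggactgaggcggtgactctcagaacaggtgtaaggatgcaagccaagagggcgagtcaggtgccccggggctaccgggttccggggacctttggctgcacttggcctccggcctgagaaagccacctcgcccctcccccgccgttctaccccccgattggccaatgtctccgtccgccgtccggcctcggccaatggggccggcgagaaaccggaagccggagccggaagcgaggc
Acsm3: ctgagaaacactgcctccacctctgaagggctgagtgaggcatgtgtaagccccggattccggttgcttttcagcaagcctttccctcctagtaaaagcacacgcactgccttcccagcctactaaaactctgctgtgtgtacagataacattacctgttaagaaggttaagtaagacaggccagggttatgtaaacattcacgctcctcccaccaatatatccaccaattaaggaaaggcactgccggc
Acsl5: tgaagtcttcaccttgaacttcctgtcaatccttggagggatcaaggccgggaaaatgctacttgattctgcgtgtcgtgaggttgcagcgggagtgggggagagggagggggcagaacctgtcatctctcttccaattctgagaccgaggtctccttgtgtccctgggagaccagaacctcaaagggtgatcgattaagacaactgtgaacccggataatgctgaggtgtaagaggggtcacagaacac
Cpt1a: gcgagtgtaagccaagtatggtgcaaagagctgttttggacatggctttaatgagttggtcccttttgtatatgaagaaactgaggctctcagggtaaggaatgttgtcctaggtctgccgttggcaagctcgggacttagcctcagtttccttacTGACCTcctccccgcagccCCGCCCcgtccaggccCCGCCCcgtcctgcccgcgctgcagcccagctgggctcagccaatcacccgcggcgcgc
Neither motif occurs in the windows of Mlycd, Acsm3 and Acsl5. The Cpt1a window holds 1 half-site, read as TGACCT on this strand, and 2 GC boxes, read as CCGCCC. The guanine and cytosine content of these windows was 67.6% for Mlycd, 59.6% for Cpt1a, 52.8% for Acsl5 and 49.2% for Acsm3.

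Over RefSeq windows from 250 bases before to 50 bases after the start, 30 of the 34 genes were matched, with 33 windows. AGGTCA occurred in 6 of the 33 member windows (18.2%) and in 16.3% of all 32851 windows. GGGCGG occurred in 23 member windows (69.7%) from 21 genes, against 35.7% of all windows. The direct repeat of AGGTCA with any 1 base between its copies was in 0 member windows and in 0.0396% of all windows, and the extended half-site TCAAGGTCA was in 1 member window, that of Acsl6, and in 0.423% of all windows. Each extended motif contains an AGGTCA and is counted there too. These are letter matches, and nothing was measured about binding.

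Hadha and Hadhb, the pair of trifunctional protein subunits, start back to back on chromosome 5, Hadha on the minus and Hadhb on the plus strand. Only 85 bases separate their annotated starts, at chr5:30155163-30155247 on GRCm38, shown here on the plus strand because each gene starts at one end of it. Capitals mark its 2 GC boxes.
Hadha-Hadhb gap: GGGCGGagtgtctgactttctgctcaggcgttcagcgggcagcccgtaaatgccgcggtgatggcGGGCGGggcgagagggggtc
Hadha stood at 310.2 and 402 FPKM at 22 °C and at 624 and 574 FPKM at 4 °C. Hadhb stood at 734 and 872 FPKM at 22 °C and at 1147 and 1056 FPKM at 4 °C. Both genes were higher in both 4 °C libraries, with log2 fold changes of 0.76 for Hadha (limma adjusted p = 0.213) and 0.46 for Hadhb (limma adjusted p = 0.447). Their ratio, which a common factor on all genes of a library cannot move, was lower at 4 °C. Hadhb over Hadha was 2.37 and 2.17 at 22 °C and 1.84 in both 4 °C libraries. At 4 °C it was 0.812 of its 22 °C value, and the exact two-sided permutation test gave p = 0.333, the smallest that 2 against 2 libraries allow.

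Levels of the carnitine shuttle genes lay mostly higher at 4 °C, although Mlycd alone passed the threshold. A gene is said here to lie above when both libraries of the second group exceed both of the first, and below in the opposite case. In this step 5 of 7 genes lay above at 4 °C and 0 below. Of all genes tested 37.9% lay above and 20.6% below, and of those averaging 1 FPKM or more 46.9% and 15.3%. Cpt1b, the main CPT1 gene here, stood at 206 and 229.8 FPKM at 22 °C and at 446 and 402 FPKM at 4 °C (log2 fold change 0.96 ± 0.27, limma adjusted p = 0.12). Its levels within a group were close together and the groups lay well apart, while its log2 fold change was 0.44 after quantile normalization. Cpt1b (chr15:89416405-89425863, minus strand) is annotated to share exons with Gm44502 on the same strand, so part of its reads may belong to that gene. Slc25a20, the carnitine-acylcarnitine translocase, stood at 130.0 and 170.4 FPKM at 22 °C and at 284 and 234 FPKM at 4 °C (log2 fold change 0.79 ± 0.29, limma adjusted p = 0.179), and its log2 fold change was 0.26 after quantile normalization. Slc22a5, the plasma membrane carnitine transporter OCTN2, went from 13.8 and 15.1 FPKM to 18.9 and 17.7 FPKM (log2 fold change 0.32, limma adjusted p = 0.346), a difference whose sign turned under 3 other scalings.

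Cpt1a and Cpt2 differed widely between the 4 °C libraries. Cpt1a stood at 3.26 and 2.66 FPKM at 22 °C, and at 4 °C at 10.5 FPKM in replicate 2 but 4.35 FPKM in replicate 11 (log2 fold change 0.99 ± 0.38, limma adjusted p = 0.197). The difference was 1.65 on the log2 scale between satellite-low and 0.33 between satellite-high libraries, and the log2 fold change ran from 0.44 without 4 °C replicate 2 to 1.54 without 4 °C replicate 11. Cpt2, the inner membrane enzyme, stood at 61.5 and 65.3 FPKM at 22 °C and on either side of these at 4 °C, at 48.3 and 92.8 FPKM. Its log2 fold change of 0.08 (limma adjusted p = 0.915) was 0.59 in satellite-high and -0.43 in satellite-low libraries. Cpt1c stayed low, at 0.388 and 0.261 FPKM at 22 °C and at 0.487 and 0.345 FPKM at 4 °C, and the groups overlapped.

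Among the activating enzymes the directions at 4 °C were mixed. Acsl1 stood at 473 and 512 FPKM at 22 °C and at 807 and 728 FPKM at 4 °C (log2 fold change 0.64, limma adjusted p = 0.268). Acss1, which activates acetate in mitochondria, stood at 37.7 and 33.3 FPKM at 22 °C and at 61.8 and 69.5 FPKM at 4 °C (log2 fold change 0.87 ± 0.22, limma adjusted p = 0.0937, with a log2 fold change of 0.33 after quantile normalization). Acss1 overlaps exons of E130215H24Rik on the other strand, which reached 1.44 FPKM at most. Acsl5 (chr19:55253369-55296627, plus strand), a long-chain synthetase of mitochondria and endoplasmic reticulum, stood at 21.9 and 71.5 FPKM at 22 °C and at 103 and 199 FPKM at 4 °C. All 4 Acsl5 values differed widely, and the log2 fold change of 1.83 ± 0.62 (limma adjusted p = 0.161) was 3.13 in satellite-high and 0.52 in satellite-low libraries. Acsl5 was not past the threshold in any fit with 2 libraries in each group. With one library left out, its log2 fold change ran from 0.99 without 22 °C replicate 4 to 2.66 without 22 °C replicate 7. Acsl3 and Acsl6 also lay above in both 4 °C libraries (log2 fold changes 0.49 and 0.30), while Acsm5 and Acsf2 overlapped. Acsl3 shares exons with Utp14b on the same strand, which stood at 1.27 and 2.24 FPKM at 22 °C and at 3.32 and 4.01 FPKM at 4 °C. Part of the Acsl3 reads may belong to that gene.

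None of the enzymes of the spiral passed the threshold at 4 °C by limma, with unadjusted p below 0.05 for 2 dehydrogenase genes and 0 of the later, auxiliary and ETF genes. Over all genes tested 1.44% passed, 24.5% had an unadjusted p below 0.05, 37.9% lay above and 20.6% lay below. Acadvl (log2 fold change 0.67), Acadl (0.40) and Acad9 (0.49), dehydrogenase genes for longer chains, lay above in both 4 °C libraries, with limma adjusted p from 0.21 to 0.437. Acadvl stood at 439 and 483 FPKM at 22 °C and at 701 and 769.9 FPKM at 4 °C. Acad10 and Acad12 lay below in both. Acad12 stood at 10.1 and 9.41 FPKM at 22 °C and at 5.87 and 4.02 FPKM at 4 °C (log2 fold change -0.87 ± 0.22, limma adjusted p = 0.0987). Acad12 was past the threshold under 3 of 16 alternatives, all of them other scalings of the libraries, with adjusted p from 0.0157 to 0.399. Acadm, Acads and Acad11 overlapped between the groups. Acadm stood at 515 and 497 FPKM at 22 °C and at 323 and 736 FPKM at 4 °C, with the lower 4 °C value in the satellite-low library.

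Past the dehydrogenases, Hadh and Acaa2 pointed the other way from Hadha and Hadhb. Hadh, the 3-hydroxyacyl-CoA dehydrogenase of short and medium chains, stood at 234 and 252 FPKM at 22 °C and at 216 and 175 FPKM at 4 °C (log2 fold change -0.32, limma adjusted p = 0.511). Acaa2 stood at 645 and 732 FPKM at 22 °C and at 641 and 575 FPKM at 4 °C (log2 fold change -0.18, limma adjusted p = 0.766). The ratio of Hadh to Hadha separated the groups widely, at 0.754 and 0.627 at 22 °C and at 0.346 and 0.306 at 4 °C, a geometric mean ratio of 0.473 (exact two-sided permutation p = 0.333, the smallest possible). Echs1, the short-chain hydratase gene, overlapped. Among the auxiliary enzymes for unsaturated chains, the dienoyl-CoA reductase gene Decr1 lay above (0.54), the isomerase gene Eci1 below (-0.21), and Eci2 overlapped. Of the ETF genes, Etfa (0.55) and Etfdh (0.63) lay above in both 4 °C libraries and Etfb overlapped.

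Over all 34 genes, 18 lay above in both 4 °C libraries, 6 below and 10 overlapped, against 37.9% above and 20.6% below of all genes tested, and 46.9% and 15.3% of those averaging 1 FPKM or more. The median log2 fold change of the members was 0.36, and that of all tested genes averaging 1 FPKM or more was 0.21. The member median was below 0 under 3 other scalings, at -0.0327 after quantile normalization, -0.014 after rescaling to the autosomal sum and -0.0378 after a rescaling that leaves out Ucp1, rRNA and mitochondrial genes. After each library was centred on its median over such genes, 15 members lay above (background 19.8%, or 29.5% of genes averaging 1 FPKM or more) and 10 below (47.7% and 34.7%), and the member median was 0.10. By step, the median on the deposited scale was 0.79 for the carnitine shuttle, 0.55 for ETF, 0.39 for activation, 0.20 for the auxiliary enzymes, 0.12 for the dehydrogenases and -0.04 for the later steps. After the centring these medians were 0.53, 0.29, 0.14, -0.06, -0.13 and -0.30 in the same order, so those of the auxiliary enzymes and the dehydrogenases turned sign. The skeletal muscle markers moved with the cold comparison: 11 of 11 lay above at 4 °C (median 3.30 on the log2 scale), with limma adjusted p from 0.0634 to 0.109, and none was at 0 in any library. Of the 10 brown adipocyte markers 7 lay above and 2, Prdm16 and Adipoq, below at 4 °C, and 3 passed the threshold higher. Their summed level was 3502 and 4306 FPKM at 22 °C against 10612 and 8749 FPKM at 4 °C. Of that sum Ucp1 alone made up 699 and 1427 FPKM at 22 °C and 6462 and 5371 FPKM at 4 °C. Muscle also expresses Cpt1b, Slc25a20 and Mlycd, and the part of muscle RNA or of the brown adipocyte markers in the member differences was not tested.

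**Figure D2:**
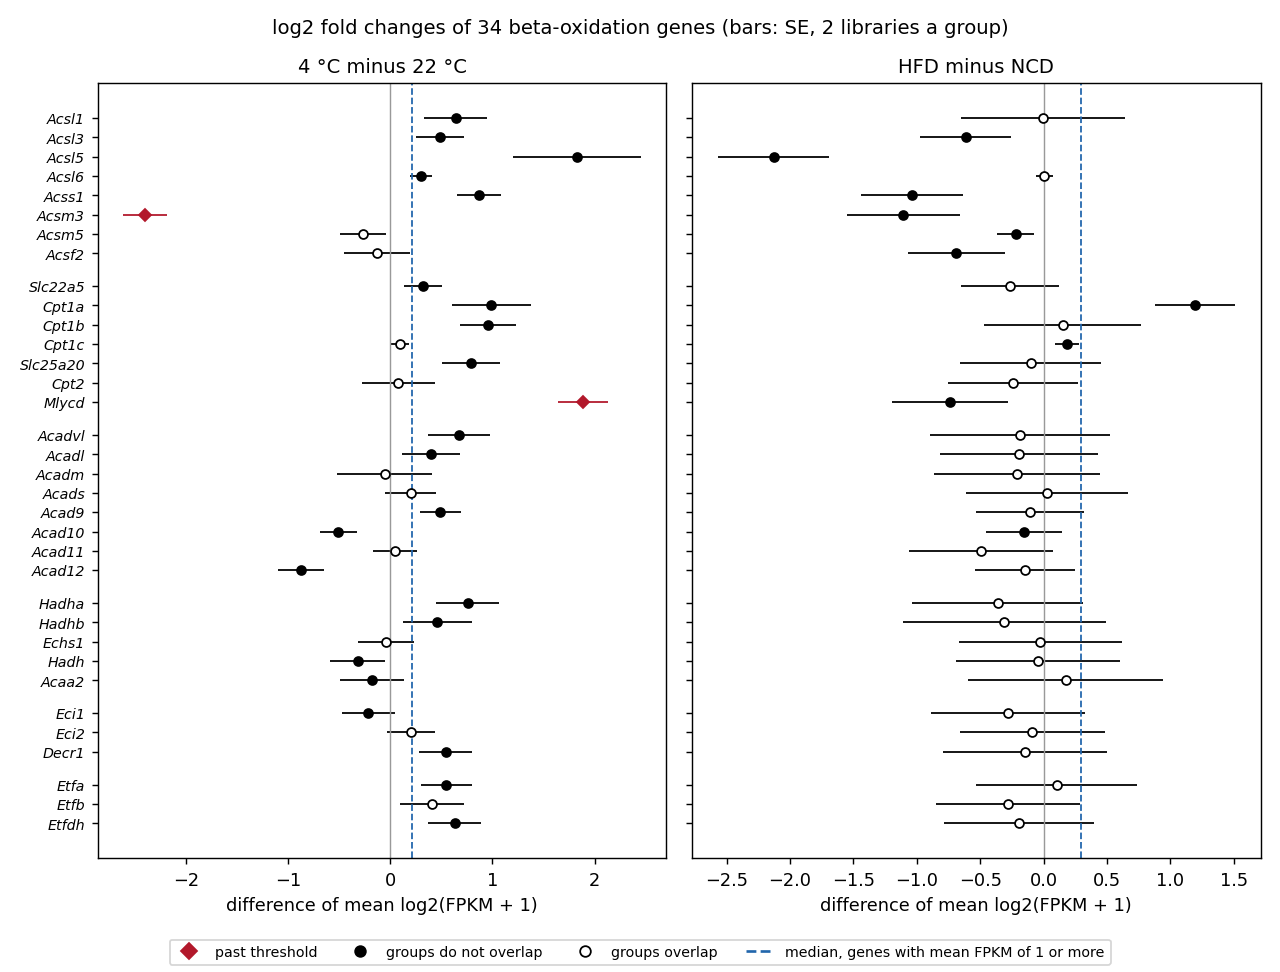
Differences of mean log2(FPKM + 1) for the 34 genes at 4 °C minus 22 °C and at HFD minus NCD, with SE bars (2 libraries a group) and the median of genes averaging 1 FPKM or more as a dashed line (0.21 and 0.29). Mlycd at 1.88 and Acsm3 at -2.40 are past the threshold at 4 °C, and 33 of 34 genes lie left of the dashed line under HFD.

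The second comparison asked which members differ between HFD and NCD. With 17543 genes tested in the same way, 0 of 34 members passed the threshold by limma, where 0.0684% of all genes tested did. Unadjusted p was below 0.05 for 4 members (Acsl5, Acss1, Acsm3 and Cpt1a) and for 14.4% of all genes tested. Both HFD libraries lay below both NCD libraries in 8 members, against 5.80% of all genes tested and 4.08% of those averaging 1 FPKM or more. They lay above in 2 members, Cpt1a and Cpt1c, against 39.9% and 39.2%.

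Of the 8 activation genes 0 passed the threshold by limma under HFD, with unadjusted p below 0.05 for 3. The groups did not overlap in 6 of the 8, which lay below under HFD, against 5.80% of all genes tested and 4.08% of those averaging 1 FPKM or more. Acsl5 stood at 86.8 and 54.5 FPKM under NCD and at 13.4 and 16.7 FPKM under HFD. Acsl5 shares exon sequence with Zdhhc6 on the opposite strand, which stood at 8.08 and 6.00 FPKM under NCD and at 7.94 and 8.01 FPKM under HFD, so part of the Acsl5 reads may belong to that gene. The groups were far apart, with means of 70.6 ± 22.9 and 15.0 ± 2.29 FPKM (SD, n = 2 each), and the log2 fold change was -2.13 ± 0.44 (limma adjusted p = 0.151). It was -1.94 within satellite-high and -2.31 within satellite-low libraries. Among fits with 2 libraries in each group, Acsl5 was past the threshold only after median centring (limma adjusted p = 0.0269) and with library type as a covariate. With no filter on low values its limma adjusted p was 0.528. With one library left out, its log2 fold change ran from -2.46 to -1.80. Against Acsl1, its abundant relative, Acsl5 was 0.126 and 0.0893 under NCD and 0.022 and 0.0244 under HFD, a ratio of 0.218 between the groups (exact two-sided permutation p = 0.333, the smallest possible). Acsl1 itself stood at 688 and 609.7 FPKM under NCD and at 611 and 682 FPKM under HFD.

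Acss1 stood at 45.9 and 35.0 FPKM under NCD and at 17.3 and 20.9 FPKM under HFD (log2 fold change -1.04 ± 0.41, limma adjusted p = 0.309). Acsm3 stood at 29.0 and 19.5 FPKM under NCD and at 7.53 and 14.6 FPKM under HFD (log2 fold change -1.11 ± 0.44, limma adjusted p = 0.321). In both genes the groups did not overlap and NCD replicate 6 was the highest of the 4 libraries. With library type as a covariate, a fit in which 4.25% of all genes tested passed, both passed the threshold together with Acsl5 and Cpt1a, at unchanged fold changes and adjusted p of 0.0143 for Acss1, 0.0123 for Acsm3 and 0.00819 for Cpt1a. That covariate in a fit of all 8 libraries called 439 of 17543 genes tested. There Acss1 passed (limma adjusted p = 0.0472), while Acsl5, Acsm3 and Cpt1a did not, with an adjusted p of 0.0748 for Acsm3. With one library left out, the log2 fold change of Acsm3 ran from -0.67 to -1.54. Acsl3 stood at 16.2 and 11.8 FPKM under NCD and at 9.87 and 7.63 FPKM under HFD (log2 fold change -0.62, limma adjusted p = 0.494). Utp14b, which shares exons with Acsl3, stood at 2.79 and 1.99 FPKM under NCD and at 2.32 and 2.03 FPKM under HFD. Acsf2 stood at 3.98 and 8.65 FPKM under NCD and at 3.34 and 3.26 FPKM under HFD (log2 fold change -0.69, limma adjusted p = 0.467), and that fold change ran from -0.21 to -1.17 with one library left out. Acsm5 lay below too, at 0.493 and 0.599 FPKM under HFD.

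Cpt1a (chr19:3323301-3385732, plus strand) was the member with the highest fold change under HFD. It stood at 4.41 FPKM in both NCD libraries and at 11.9 and 10.9 FPKM under HFD, a 2.59-fold difference of means (log2 fold change 1.20 ± 0.31, limma adjusted p = 0.18). The difference was 1.25 in satellite-high and 1.14 in satellite-low libraries. Cpt1b, by contrast, overlapped, with 407 and 245 FPKM under NCD and 302 and 407 FPKM under HFD (log2 fold change 0.15, limma adjusted p = 0.934). Cpt1a over Cpt1b lay higher under HFD, at 0.0392 and 0.0269 against 0.0108 and 0.018 under NCD, a ratio of 2.33 (exact two-sided permutation p = 0.333, the smallest possible). Cpt1a transcript remained a small part of all CPT1 transcript in every library. Cpt1c stood at 0.209 and 0.26 FPKM under NCD and at 0.384 and 0.421 FPKM under HFD (log2 fold change 0.18, limma adjusted p = 0.424), and its sign turned under median centring.

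Mlycd lay lower under HFD, at 60.0 and 41.1 FPKM under NCD and 23.9 and 36.2 FPKM under HFD (log2 fold change -0.74 ± 0.46, limma adjusted p = 0.517). The groups did not overlap, but HFD replicate 6 came close to NCD replicate 8. With one library left out, the log2 fold change of Mlycd ran from -0.45 to -1.03. Against Cpt1b, Mlycd was 0.148 and 0.168 under NCD and 0.079 and 0.0891 under HFD. The same ratio was 0.0802 and 0.0944 at 22 °C and 0.181 and 0.162 at 4 °C, so it was higher at 4 °C by a factor of 1.97 and lower under HFD at 0.533 of its NCD value. Each of these has an exact two-sided permutation p of 0.333, the smallest possible. Slc25a20 (-0.10), Slc22a5 (-0.26) and Cpt2 (-0.24) overlapped between NCD and HFD, with limma adjusted p from 0.799 to 0.952. Slc25a20 stood at 260.4 and 185 FPKM under NCD and at 187 and 224 FPKM under HFD. Slc22a5 stood at 19.6 and 12.7 FPKM under NCD and at 11.6 and 14.5 FPKM under HFD. Cpt2 stood at 76.3 and 116 FPKM under NCD and at 97.4 and 64.6 FPKM under HFD.

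**Figure D3:**
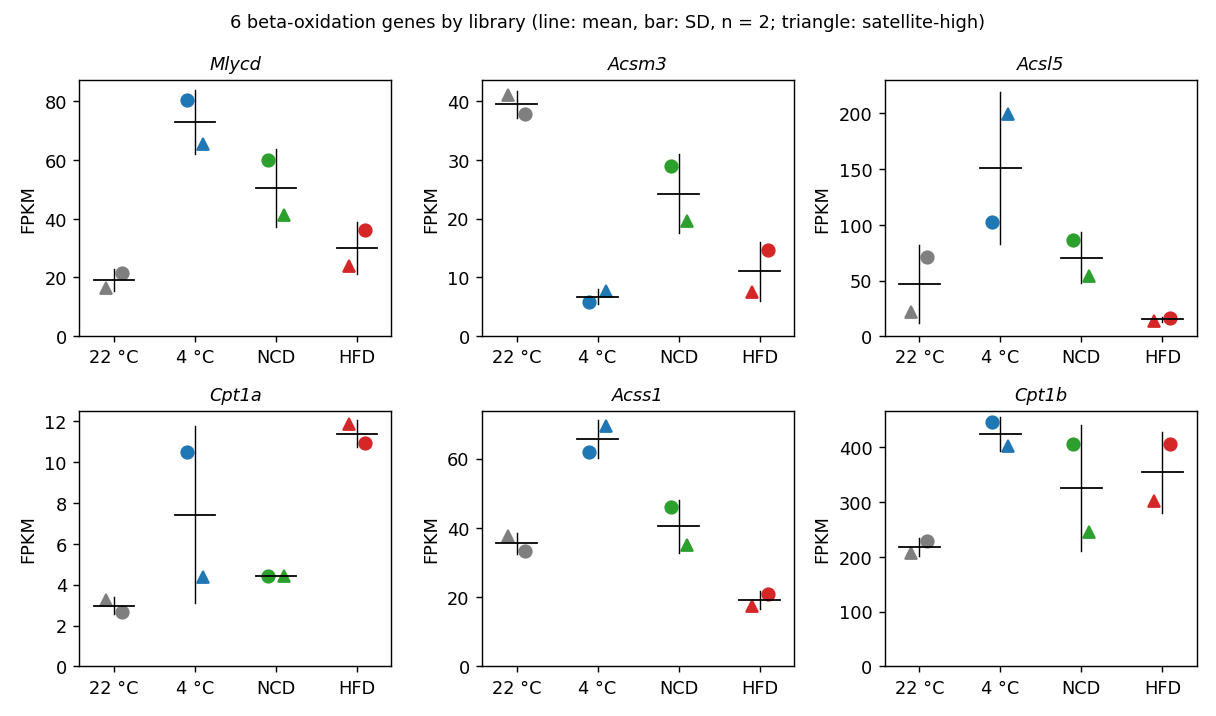
FPKM per library of Mlycd, Acsm3, Acsl5, Cpt1a, Acss1 and Cpt1b in the 4 groups, with the group mean as a line and the SD (n = 2) as a bar; triangles are satellite-high libraries. Mlycd lies at 65.3 FPKM or more at 4 °C and at 21.7 FPKM or less at 22 °C, and Acsl5 at 16.7 FPKM or less under HFD.

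Levels of the spiral enzymes overlapped between the diets with 1 exception. Of the dehydrogenases, the later steps, the auxiliary enzymes and ETF, Acad10 was the only one of 19 whose groups did not overlap (over all genes tested 39.9% lay above and 5.80% below), at 6.13 and 5.79 FPKM under NCD and 5.19 and 5.30 FPKM under HFD. Most of these genes were highest in NCD replicate 6, the NCD library of the other run prefix, so the NCD spread was wide. Hadhb stood at 2278 and 1048 FPKM under NCD and at 969 and 1608 FPKM under HFD (log2 fold change -0.31 ± 0.80, limma adjusted p = 0.894). Acadvl stood at 1029 and 525 FPKM under NCD and at 551 and 759 FPKM under HFD (log2 fold change -0.18, limma adjusted p = 0.929). Hadha stood at 807 and 478 FPKM under NCD and at 388 and 601 FPKM under HFD, and Acaa2 at 1118 and 467 FPKM and at 612 and 1086 FPKM. Acadm stood at 493 and 592 FPKM under NCD and at 615 and 356 FPKM under HFD, with its lowest value in HFD replicate 6. Acad11, a dehydrogenase that acts on long chains, stood at 188 and 89.8 FPKM under NCD and at 78.4 and 108 FPKM under HFD (log2 fold change -0.49 ± 0.57, limma adjusted p = 0.736). SE values in these genes ran from 0.30 to 0.80 on the log2 scale, larger than the fold change in each of them.

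The log2 fold changes of the members were below 0 in 27 genes and above 0 in 7. Their median was -0.19, while genes averaging 1 FPKM or more had a median of 0.29, and 33 of 34 members lay below that value. The distance between the medians was -0.48, and -0.23 after quantile normalization. The member median was above 0 without NCD replicate 6 (0.0912) and without HFD replicate 2 (0.0268). After centring of each library on its median, 21 members lay below in both HFD libraries (background 28.4%, or 23.6% of genes averaging 1 FPKM or more), Cpt1a alone lay above (11.3% and 16.9%), and the member median was -0.54. With that centring Acsl5 was the 1 member past the threshold (limma adjusted p = 0.0269), as were 0.257% of all genes tested. Skeletal muscle markers moved with this comparison as well, 10 of 11 lying below under HFD with a median log2 fold change of -3.67 and limma adjusted p from 0.137 to 0.534. Macrophage markers lay above in 8 of 8, with a median of 1.55, a summed level of 111 and 40.6 FPKM under NCD against 194 and 246 FPKM under HFD, and limma adjusted p from 0.151 to 0.39. The white adipocyte list (Lep, Retn, Agt, Nnat, Npr3, Trem2 and Mest) lay above in 6 of 7, with a median of 2.54. It includes Trem2, which macrophages also express, at 1.95 and 0.296 FPKM under NCD and 7.43 and 9.53 FPKM under HFD. The summed level was 27.5 and 15.3 FPKM under NCD against 224 and 231 FPKM under HFD. In the temperature groups that sum was 147 and 85.0 FPKM at 22 °C and 285 and 149 FPKM at 4 °C, where Retn alone stood at 231 and 112 FPKM. Past the threshold under HFD were 4 of the list, Lep, Nnat, Npr3 and Mest. These 4 calls held under 10 or 11 of 17 alternatives each, with adjusted p up to 0.468 or 0.528. Of the 10 brown adipocyte markers 3 lay above and 2 below under HFD with none past the threshold by limma (unadjusted p below 0.05 for 1), and their sums overlapped, at 9234 and 5357 FPKM under NCD and 4633 and 7100.2 FPKM under HFD. With library type as a covariate, 10 of 11 muscle markers and 2 of 10 brown adipocyte markers passed the threshold lower. In that fit 6 of 8 macrophage markers and 5 of 7 of the white adipocyte list, Trem2 included, passed higher, against 4.25% of all genes tested in either direction. No marker of these 4 lists was at 0 in any library, and their part in the member differences was not tested.

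Some ratios between members lay apart by library type and not by group. Acadm over Acadl, the medium-chain to long-chain dehydrogenase ratio, lay between 1.86 and 2.28 in the 4 satellite-high libraries and between 0.818 and 1.76 in the 4 satellite-low libraries. Cpt2 over Slc25a20 lay between 0.396 and 0.627 in satellite-high and between 0.17 and 0.383 in satellite-low libraries. Both ratios overlapped between 4 °C and 22 °C and between HFD and NCD. These splits are by the Gm10800 level, a property noticed in the data, and were not tested.

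**Figure D4:**
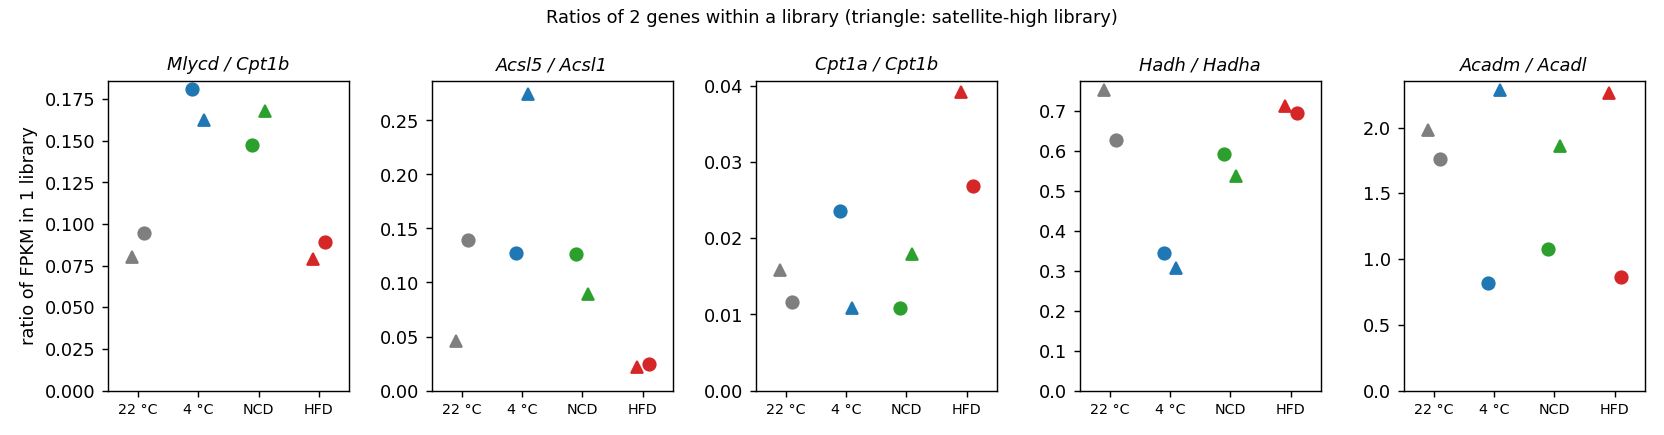
FPKM of one gene over that of another within the same library, for 5 pairs in the 4 groups; triangles are satellite-high libraries. Mlycd over Cpt1b lies at 0.162 or more at 4 °C and at 0.0944 or less at 22 °C, and Acadm over Acadl lies at 1.86 or more in all 4 satellite-high libraries.

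Other genes of the pathway were read from a list of 32, of which 30 were tested. At 4 °C, 2 passed the threshold, both higher, against 1.22% of all genes tested. Ppargc1a, the coactivator of mitochondrial gene programmes, rose from 10.9 and 10.8 FPKM to 107 and 73.6 FPKM (log2 fold change 2.92, limma adjusted p = 0.0208), and passed under 13 of 16 alternatives with adjusted p up to 0.153. Fabp3, a cytosolic fatty acid binding protein of heart, muscle and brown fat, rose from 131 and 159 FPKM to 613 and 664 FPKM (log2 fold change 2.14, limma adjusted p = 0.0442), and passed under 9 of 16 alternatives with adjusted p up to 0.171. Of the 9 regulators 7 lay above in both 4 °C libraries and 0 below (37.9% and 20.6% of all genes tested, 46.9% and 15.3% of those averaging 1 FPKM or more). Ppara, the receptor best known for control of β-oxidation genes, overlapped. In the diet comparison, where 0.0684% of all genes tested passed, 1 gene did, Acot1, an acyl-CoA thioesterase that fell from 12.7 and 15.2 FPKM under NCD to 1.35 and 1.41 FPKM under HFD (log2 fold change -2.65, limma adjusted p = 0.0467). It passed under 11 of 17 alternatives with adjusted p up to 0.468. Acaca, which makes malonyl-CoA for fatty acid synthesis, stood at 165 and 142 FPKM under NCD and at 35.3 and 33.4 FPKM under HFD (log2 fold change -2.12, limma adjusted p = 0.151). Acaca passed under 6 of 17 alternatives, with a limma adjusted p of 0.0316 after median centring. Acacb, whose product acts on CPT1, stood at 43.8 and 61.0 FPKM under NCD and at 41.5 and 38.0 FPKM under HFD (log2 fold change -0.37, limma adjusted p = 0.743). Of the 5 tested genes of other enzymes that feed ETF, such as isovaleryl-CoA dehydrogenase, none passed in either comparison by limma, with unadjusted p below 0.05 for 0.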

How the data were processed

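RNA-Seq of brown adipose tissue from 8 samples was analysed from 1 deposited table of FPKM per gene. By the methods the authors depleted rRNA, made directional libraries, mapped reads to GRCm38 with TopHat2 2.0.10 and assembled them with Cufflinks (2.2.1 in the submitters' processing notes). FPKM divides by length and mapped fragments, so it moves with what else a library holds, and counts were not used here. Columns were matched to samples by name. Values were taken as log2(FPKM + 1), which understates changes of low genes. Autosomal genes with at least 0.1 FPKM in 2 of the 4 libraries compared were fitted with limma 3.58.1 in R 4.3.3. Temperature and diet were fitted separately (lmFit, eBayes with trend, two-sided, Benjamini-Hochberg adjustment). The fit was also run on simulated data with independent noise for each gene and planted changes. Those data held none of the differences between libraries described above, so that run cannot tell how such differences move the calls. Groups compared have 2 libraries each. Non-overlap means both libraries of a group lie above both of the other. The depth was read from low values, 99.5% to 99.9% of which were whole fragments within 0.1. Ratios were compared by exact permutation. The alternatives were other pseudocounts, filters, scalings, covariates, a fit of all libraries and leaving out each library. For diet a fit of the libraries of run prefix 7001432L was added. It is the same fit as that without NCD replicate 6, so every count of diet alternatives holds that fit under both names. Members, gene lists and the library type split were chosen with earlier results of these data known. Full values are given for members past the threshold, the 8 largest fold changes per comparison, the carnitine shuttle and the 6 highest levels, and others were added after their values were seen. Promoter windows are from RefSeq on GRCm38.p6, gene positions from the deposited table, and exon overlaps from GENCODE on GRCm38. No promoter window was matched for Acaa2, Acad9, Cpt1b or Decr1. White adipocyte markers (1 of 7 past the threshold at 4 °C) and endothelial markers (0 of 6 in both, by limma, with unadjusted p below 0.05 for 4 at 4 °C and 0 under HFD) were also read.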

Additional observations from a re-analysis of the deposited data

How the results depend on the processing

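With 2 libraries per group, a p-value near the threshold turns on single libraries, and differences of low genes are damped by the pseudocount. All 24 log2 fold changes were recomputed under every setting, except that Cpt1c was not tested under the filter at 1 FPKM, and the causes of the changes below were not tested. At 4 °C, the number of members past the threshold was 0 higher and 0 lower (from 1 and 1) with no filter on low values and without the eBayes trend, settings under which limma called 0 of all genes (unadjusted p below 0.05 for 4691 and 4172 genes). It was 0 higher after a rescaling that leaves out Ucp1, rRNA and mitochondrial genes, where Mlycd had a log2 fold change of 1.45, and 2 lower under median centring, quantile normalization and rescaling to the autosomal sum, where Acad12 joined Acsm3. With one library left out, a group held a single library, so no count is given here. The counts of alternatives passed by single genes in the results above do include such fits. The log2 fold changes then ran from 1.70 to 2.07 for Mlycd and from -2.57 to -2.23 for Acsm3. The member median at 4 °C was 0.10 after centring, -0.0327 after quantile normalization, -0.014 after the autosomal rescaling, -0.0378 after the rescaling without Ucp1, and 0.30 to 0.50 with one library left out. Its distance from the median of genes averaging 1 FPKM or more was 0.15, and was 0.0088 after quantile normalization and 0.10 to 0.29 with one library left out. Under HFD, the number past the threshold was 1 lower after centring, where 0.257% of all genes tested passed. It was 1 higher and 3 lower with library type as a covariate, where 4.25% passed. With that covariate and all 8 libraries it was 1 lower, where 439 of 17543 genes tested passed. Leaving out one library left a group with a single library, so no count is given here. The log2 fold change of Acsl5 then ran from -2.46 to -1.80. In this comparison limma called 0 of all genes with no filter on low values, after quantile normalization and both rescalings, with X, Y and mitochondrial genes kept and without the eBayes trend (unadjusted p below 0.05 for 2127 to 2533 genes), so the calls on Acot1 and the white adipocyte markers were lost there. The member median was -0.19, and was -0.54 after centring and between -0.49 and 0.09 with one library left out. Its distance from the median of genes averaging 1 FPKM or more was -0.48, and was -0.23 after quantile normalization.

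Signs turned as follows. At 4 °C, under median centring, quantile normalization, the autosomal rescaling and the rescaling without Ucp1, Cpt2 was at -0.18, -0.43, -0.33 and -0.36. Cpt1c was at -0.16 after centring, -0.0191 after the autosomal rescaling and -0.0388 after the rescaling without Ucp1. Slc22a5 was at -0.0713 after quantile normalization, -0.0739 after the autosomal rescaling and -0.0978 after the rescaling without Ucp1. With one library left out, Cpt2 ran from -0.38 to 0.54. Under HFD, Cpt1b was at -0.20 after centring and at -0.0157 and -0.0164 after the autosomal rescaling and the rescaling without Ucp1, and Cpt1c at -0.17 after centring. With one library left out, Cpt1b ran from -0.21 to 0.52, Cpt2 from -0.54 to 0.0561, Slc25a20 from -0.35 to 0.14, Slc22a5 from -0.56 to 0.0304 and Acad11 from -1.02 to 0.0329. In the 3 libraries of run prefix 7001432L, which are those left without NCD replicate 6, Slc25a20, Slc22a5 and Acad11 were at 0.14, 0.0304 and 0.0329. A library left alone in its group was taken to vary like the other group. No paired analysis by replicate number was possible because the 22 °C and 4 °C groups share no replicate number and the NCD and HFD groups share only number 6, and the fit with library type as a covariate pairs the libraries by type instead.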
